A study of Homo sapiens with 8 samples.

Results

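To examine how the transcription factors of myeloid identity behaved under immunoproteasome inhibition, 9 genes were followed in RNA-sequencing counts of MOLM-13 cells. These were the C/EBP family genes CEBPA, CEBPB, CEBPD, CEBPE and CEBPG, together with SPI1, GFI1, IRF8 and KLF4. They were taken by gene symbol from a count table of 38551 genes, and all 9 passed the filter on low counts. CEBPB and CEBPG were treated as the 2 stress-linked members and the remaining 7 as differentiation factors. MOLM-13 is a human cell line of acute myeloid leukemia in which KMT2A is rearranged, and every library came from this single line. The 4 control libraries were from cells given the diluent DMSO, and the other 4 from cells given 100 nM PR-957 (ONX-0914), an inhibitor of the immunoproteasome subunit PSMB8. Both treatments lasted 72 h. Libraries held between 16675036 and 23111223 counts. The labels number the replicates 1 to 4 in each group without saying whether they were separate cultures, so p-values measure the spread between these libraries, which may be technical.

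C/EBP proteins are basic leucine zipper (bZIP) factors that bind DNA as dimers, and in the bone marrow they act in sequence. CEBPA carries progenitors into the granulocyte and monocyte lineages, CEBPE acts later in granulocyte maturation, and CEBPD is an inducible member linked to inflammation and late granulopoiesis. CEBPB drives emergency granulopoiesis and is also induced by stress of the endoplasmic reticulum, while CEBPG has no strong activation domain of its own, pairs with other bZIP factors and serves with ATF4 in the amino acid and oxidative stress response. SPI1 encodes PU.1, the ETS factor needed for myeloid development, IRF8 and KLF4 favour monocytes, and GFI1 is a repressor that favours granulocytes.

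Of the 9 factors, 6 changed under PR-957 at an adjusted p under 0.05 in the quasi-likelihood test of edgeR, where 46.6% of the 13179 genes tested did. Both stress-linked factors fell, 2 of 9 members against 23.5% of all genes called lower. Among the 7 differentiation factors CEBPE, SPI1, IRF8 and KLF4 rose, none fell and 3 did not pass the test, with 23.1% of all genes called higher. CEBPB, CEBPG and CEBPE were the 3 members that changed by at least 1.5-fold, which 13.8% of all genes did. At least 2-fold, a threshold added after the data were seen, left CEBPB among the lower and CEBPE among the higher, where it left 5.02% of all genes. The median log2 fold change was 0.02 over the members and 0.00 over all genes tested, and for 6 of the 9 members the libraries of the groups did not overlap, as was the case for 42.5% of all genes. Since RNA was measured in bulk, fewer cells of a type and less RNA per cell cannot be told apart.

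**Figure D1:**
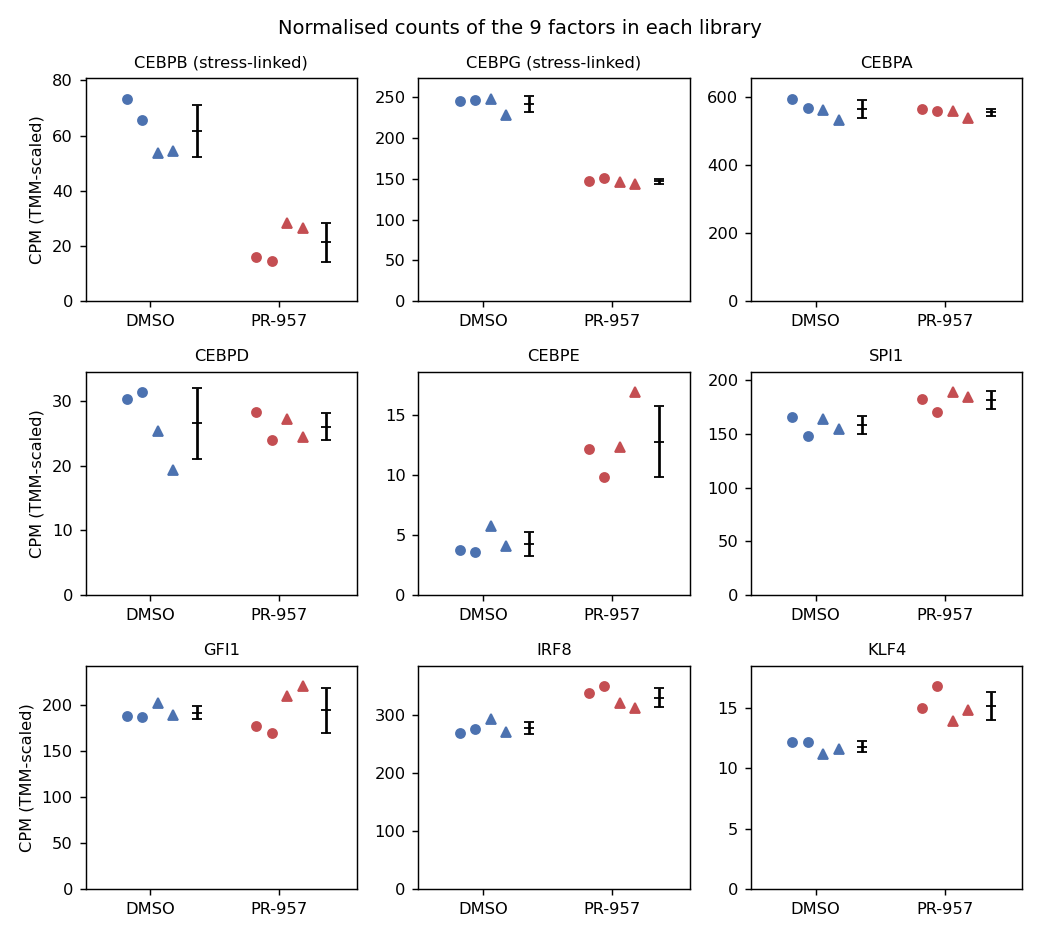
Each panel shows 1 factor, with normalised counts (CPM, counts scaled to a common library size, with library sizes scaled by TMM, the trimmed mean of M-values) on a linear axis from 0 for the 4 DMSO libraries (blue) and the 4 PR-957 libraries (red). Circles are replicates 1 and 2, triangles are replicates 3 and 4, and the black bars are the mean ± SD of 4 libraries; CEBPB and CEBPG lie lower in every PR-957 library, CEBPE lies higher in every one, and CEBPA, CEBPD and GFI1 overlap.

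The stress-linked factor CEBPB showed the largest decrease of the 9 factors. CEBPB (hg38 chr20:50190583-50192690, plus strand) is a gene of 1 exon. In DMSO replicates 1 to 4 it had 73.4, 65.7, 53.7 and 54.4 CPM, and in PR-957 replicates 1 to 4 it had 16.04, 14.8, 28.5 and 26.4 CPM. The highest treated library thus lay below the lowest control library, and within each group replicates 1 and 2 stood apart from replicates 3 and 4. The mean of 61.8 ± 9.49 CPM dropped to 21.4 ± 7.02 CPM (SD, n = 4 per group), and the log2 fold change was -1.52 (SE 0.25, 95% interval -2.12 to -0.92, edgeR adjusted p = 0.00257), or 2.87-fold lower. In replicates 1 and 2 only, the decrease was 4.51-fold (mean 69.6 to 15.4 CPM), and in replicates 3 and 4 only it was 1.98-fold (54.1 to 27.4 CPM). The difference between these values was 1.20 on the log2 scale (SE 0.13, edgeR adjusted p = 4.96e-05), by an interaction term added after the counts of CEBPB had shown the split, so that its p is no independent evidence. This term passed the threshold for 5 of the 13179 genes (0.0379%) and for no other member, of which CEBPD (unadjusted p = 0.0126) and GFI1 (unadjusted p = 0.0208) had an unadjusted edgeR p under 0.05. No batch is named for these replicates in the labels. An antisense gene, CEBPB-AS1, shares 561 bases, 26.6% of the exon of CEBPB, on the opposite strand and held between 3 and 20 counts per library against 283 to 1246 for CEBPB.

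CEBPG, the other stress-linked factor, fell by a smaller amount and with little spread. It lies at hg38 chr19:33373709-33382686 on the plus strand, on the same chromosome as CEBPA. DMSO libraries had 244, 246, 248 and 227 CPM and PR-957 libraries 147, 151, 146 and 143 CPM. The groups were far apart relative to the range within each. From 241 ± 9.42 to 147 ± 3.15 CPM (SD, n = 4 per group), the log2 fold change was -0.71 (SE 0.05, 95% interval -0.82 to -0.61, edgeR adjusted p = 1.74e-09), a decrease of 39.1%. Unlike for CEBPB, the log2 fold change was -0.72 whether replicates 1 and 2 or replicates 3 and 4 were used.

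The promoters of CEBPG and CEBPB are shown because both genes fell and CEBPG alone of the 2 holds a motif of stress-linked dimers near its start. The sequences are those of RefSeq (GRCh38.p14), from 100 to 1 bases before an annotated start, 5′ to 3′ on the plus strand, at chr19:33374013-33374112 for CEBPG and at chr20:50190483-50190582 for CEBPB. Capitals mark TGATGCAA, the composite element to which C/EBP and ATF dimers bind.
CEBPG: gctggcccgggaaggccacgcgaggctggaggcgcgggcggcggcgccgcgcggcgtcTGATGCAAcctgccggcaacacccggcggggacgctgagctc
CEBPB: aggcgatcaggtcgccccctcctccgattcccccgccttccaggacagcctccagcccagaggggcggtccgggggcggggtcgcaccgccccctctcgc
The motif begins 42 bases before the CEBPG start, at 33374071 to 33374078, in the intron after the first exon of the longest model in the count table. It was present, on either strand, in 304 of 35116 RefSeq windows reaching from 250 bases before to 50 bases after a start, or 0.866%. Neither of the 2 CEBPB windows held it, nor did they hold TTGCNNAA, a C/EBP core, which no single run of letters can match together with TGATGCAA and which was found in 10.5% of windows. Such matches describe letters in these windows and say nothing of binding.

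The genes of the integrated stress response around CEBPB and CEBPG moved in the same direction. From a list of 8 bZIP factors and feedback genes of this response, 8 were tested, 8 were lower and 0 higher, with a median log2 fold change of -1.94. Of all genes, 23.5% were called lower, and the list was chosen with earlier results of these data known. In replicates 3 and 4 only, 7 of the list were lower. ATF4, the factor that the pathway translates under stress and a partner of CEBPG, fell by 0.82 on the log2 scale (from 963 ± 62.7 to 545 ± 18.9 CPM). DDIT3, which encodes the C/EBP relative CHOP, fell by 2.13, ATF5 by 2.79 and ATF3 by 1.74. The largest decreases in the list were those of NUPR1, a stress-induced chromatin protein (log2 fold change -3.45, edgeR adjusted p = 4.40e-08), and TRIB3, a pseudokinase in the feedback of the pathway (-3.05, edgeR adjusted p = 1.85e-16). NUPR1 had 7 to 8 counts per PR-957 library and 49 to 148 per DMSO library.

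CEBPA was the most abundant of the 9 factors and did not differ detectably between the groups. CEBPA lies at hg38 chr19:33299934-33302564 on the minus strand in 1 exon. Its levels in DMSO libraries were 595, 567, 561 and 532 CPM, and those in PR-957 libraries were 563, 559, 559 and 539 CPM. All treated libraries fell within the range of the controls. The log2 fold change was -0.02 (SE 0.05, edgeR adjusted p = 0.747), with a 95% interval of -0.13 to 0.09.

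CEBPE, the late granulocyte factor, rose from a low level, and none of the other 4 C/EBP genes was called higher. The gene spans hg38 chr14:23117306-23119611 on the minus strand. In DMSO libraries it had 3.76, 3.56, 5.74 and 4.06 CPM (60 to 95 raw counts), and in PR-957 libraries 12.1, 9.81, 12.3 and 16.9 CPM (188 to 300 raw counts). Every treated library exceeded every control, and PR-957 replicate 4 was the highest. With means of 4.28 ± 0.992 and 12.8 ± 2.95 CPM (SD, n = 4 per group), its log2 fold change was 1.58 (SE 0.18, edgeR adjusted p = 1.63e-06), which corresponds to 2.99-fold with a 95% interval of 2.31 to 3.87. Both replicate sets gave 1.58. CEBPE and KLF4 are the 2 members that rose and whose RefSeq window held GAGGAA, a purine-rich core bound by PU.1, here on the gene's strand. The stretches around it are given 5′ to 3′ on the minus strand with the core in capitals. They run from 53 to 24 bases before an annotated start for CEBPE (GRCh38.p14 chr14:23119279-23119308) and from 100 to 1 bases before one for KLF4 (chr9:107489770-107489869). The CEBPE start used and the stretch before it lie inside the span of CEBPE in the count table, which reaches 23119611.
CEBPE: gcattgactacaGAGGAAggaaaaggaagc
KLF4: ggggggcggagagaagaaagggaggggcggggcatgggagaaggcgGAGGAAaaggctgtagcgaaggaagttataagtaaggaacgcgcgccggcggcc
The core stood in 27.9% of all RefSeq windows, and in 1 of the 3 GFI1 windows, but not in the CEBPA, CEBPB, CEBPG or IRF8 windows. Of the members, GFI1 also had TTGCGCAA, a form of the C/EBP core, 142 bases before another start. CEBPD and SPI1 were not searched.

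CEBPD, on hg38 chromosome 8 (47736913 to 47738164, minus strand, 1 exon), likewise did not pass the test. It had 30.3, 31.4, 25.4 and 19.3 CPM in DMSO libraries and 28.3, 24.1, 27.3 and 24.5 CPM in PR-957 libraries. The controls spread more widely than the treated libraries and enclosed them. The log2 fold change was -0.02 (SE 0.13, 95% interval -0.31 to 0.27, edgeR adjusted p = 0.901). In replicates 1 and 2 only it was -0.24 (edgeR adjusted p = 0.0494) and in replicates 3 and 4 only 0.22 (edgeR adjusted p = 0.214), and it lay between -0.16 and 0.07 with single libraries left out.

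SPI1, IRF8 and KLF4 rose together, each by less than 1.5-fold. SPI1 (hg38 chr11:47354859-47395640, minus strand) had 166, 148, 164 and 155 CPM in DMSO libraries and 183, 169.9, 189 and 185 CPM in PR-957 libraries. Its groups came close without overlapping. Means were 158 ± 8.24 and 181 ± 8.04 CPM, so that the log2 fold change was 0.20 (SE 0.06, edgeR adjusted p = 0.00607), or 1.15-fold.

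IRF8, the interferon regulatory factor of monocytes and dendritic cells (hg38 chr16:85899162-85922609, plus strand), had 269, 277, 294 and 272 CPM in DMSO libraries. In PR-957 libraries it had 338, 350.3, 322 and 313 CPM, so that replicates 1 and 2 were the highest. From 278 ± 11.1 to 331 ± 16.7 CPM, the log2 fold change was 0.25 (SE 0.05, edgeR adjusted p = 0.000885), or 1.19-fold. In replicates 3 and 4 only it was 0.16 and no longer passed the threshold (edgeR adjusted p = 0.108), though the difference between the replicate sets was not past the threshold either (edgeR adjusted p = 0.799).

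KLF4, a zinc finger factor of monocyte differentiation (hg38 chr9:107484852-107489769, minus strand), was less abundant, with 12.2, 12.2, 11.2 and 11.6 CPM in DMSO libraries and 15.04, 16.8, 14.0 and 14.9 CPM in PR-957 libraries. All treated libraries lay above all controls. The log2 fold change was 0.36 (SE 0.09, edgeR adjusted p = 0.00343), or 1.29-fold. It also lost the threshold in replicates 3 and 4 only, at a log2 fold change of 0.33 (edgeR adjusted p = 0.077).

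GFI1, the repressor that counterbalances IRF8 and SPI1 in granulocyte fate, did not pass the test, and its PR-957 libraries were split. At hg38 chr1:92473043-92486925 on the minus strand, it had 188, 186, 202 and 189 CPM in DMSO libraries. PR-957 replicates 1 and 2 had 177 and 169.5 CPM, below every control, and replicates 3 and 4 had 209 and 220.2 CPM, above every control. The log2 fold change was 0.02 (SE 0.07, 95% interval -0.14 to 0.17, edgeR adjusted p = 0.853), and it was -0.11 and 0.13 within replicates 1 and 2 and within replicates 3 and 4. Neither of these passed the threshold (edgeR adjusted p = 0.163 and 0.196).

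**Figure D2:**
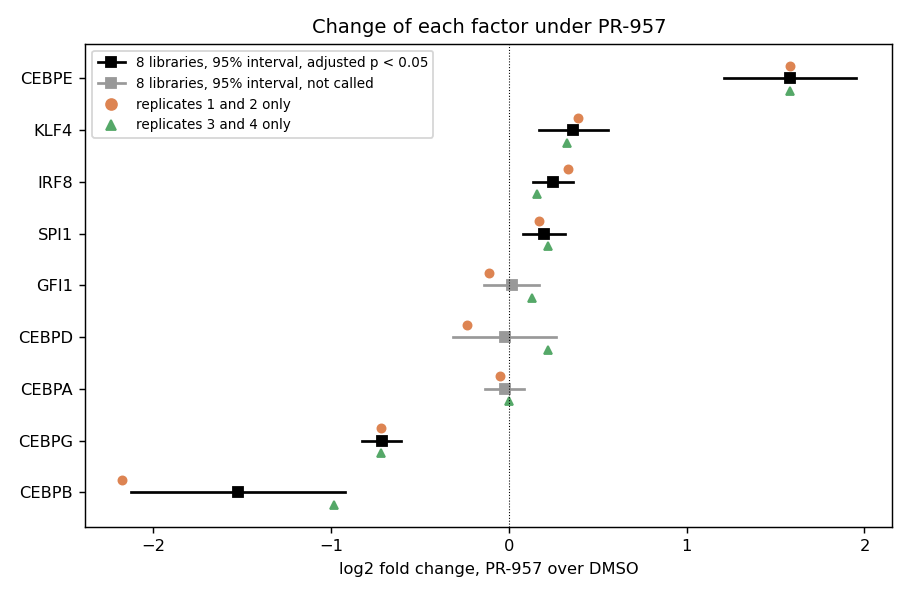
The horizontal axis is the log2 fold change of PR-957 over DMSO for each factor, with squares and lines for the estimate from 8 libraries and its 95% interval, black where the adjusted p was under 0.05 and grey where it was not. Circles are the estimates from replicates 1 and 2 only and triangles those from replicates 3 and 4 only; the 2 sets nearly coincide for CEBPE at 1.58 and CEBPG at -0.72 and are widest apart for CEBPB, at -2.17 and -0.98.

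To compare levels between genes, counts were expressed per kilobase of annotated exon and scaled to a common sum (TPM). In DMSO cells CEBPA led with 459 ± 16.6 TPM, followed by IRF8 at 218 ± 7.94, CEBPG at 122 ± 3.84 and SPI1 at 109 ± 3.27 TPM. GFI1 (64.6 ± 1.87), CEBPB (62.8 ± 9.41) and CEBPD (45.4 ± 9.34) came next, and the ranges of the neighbours in this run overlapped. KLF4 (8.31 ± 0.446) and CEBPE (5.91 ± 1.26) were the least abundant and also overlapped. Under PR-957 the order was CEBPA (468 ± 10.7), IRF8 (269 ± 11.4), SPI1 (130.4 ± 7.56), CEBPG (76.9 ± 2.40), GFI1 (68.1 ± 10.2), CEBPD (46.1 ± 2.99), CEBPB (22.7 ± 7.91), CEBPE (18.4 ± 4.58) and KLF4 (11.1 ± 0.885 TPM). SPI1 thus stood above CEBPG in place of below it, and CEBPB came after CEBPD. CEBPG and GFI1 overlapped there, as did CEBPB and CEBPE.

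The makeup of the C/EBP transcripts was followed as a description of the same levels. The 5 C/EBP genes summed to 724, 727, 669.7 and 658 TPM in DMSO libraries and to 609, 625, 655 and 641 TPM in PR-957 libraries. Of this sum, CEBPA made up 66.1 ± 1.12% with DMSO and 74.1 ± 1.36% with PR-957. The share of CEBPG was 17.5 ± 0.650% and 12.2 ± 0.353%, and that of CEBPB 9.01 ± 0.936% and 3.56 ± 1.15%. CEBPE accounted for 0.857 ± 0.215% and 2.90 ± 0.685%, and CEBPD for 6.50 ± 1.04% and 7.30 ± 0.490%. The pool was therefore slightly smaller with PR-957 in all 4 libraries than in any control, and less of it was CEBPB and CEBPG.

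**Figure D3:**
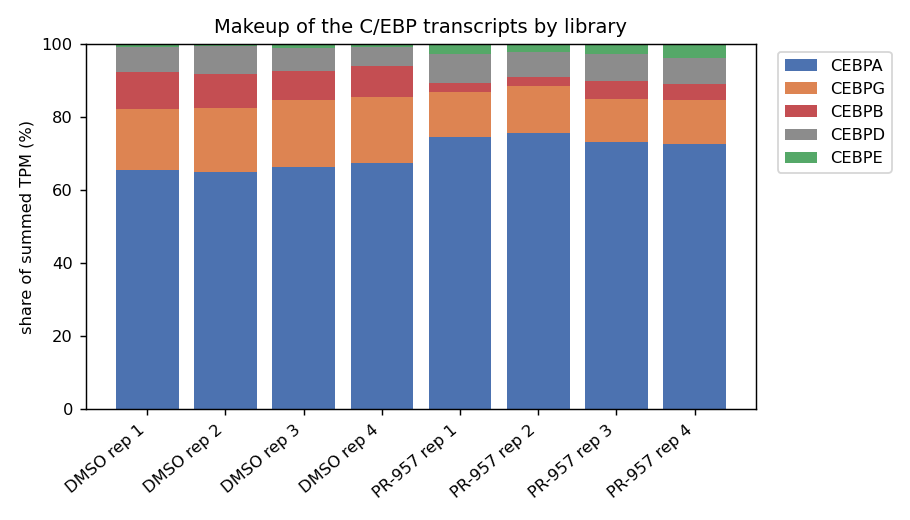
Stacked bars give the percentage of the summed C/EBP TPM that each of the 5 C/EBP genes contributed in each library, on an axis from 0 to 100%. The CEBPB segment is between 7.93 and 10.1% in DMSO libraries and between 2.50 and 4.66% in PR-957 libraries, and the CEBPE segment goes from at most 1.16% to at least 2.26%.

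Ratios of counts within a library do not depend on how libraries are scaled, and 5 were computed. CEBPA over CEBPB was 8.10, 8.63, 10.4 and 9.78 in DMSO libraries and 35.0, 37.8, 19.6 and 20.4 in PR-957 libraries, a difference of 1.55 on the log2 scale. CEBPB over CEBPG also moved, since the stress-linked members fell by unequal amounts, from 0.301, 0.268, 0.217 and 0.240 to 0.109, 0.0980, 0.195 and 0.184, a log2 difference of -0.86. CEBPA over SPI1, whose balance bears on the choice between granulocytes and monocytes, was between 3.42 and 3.84 with DMSO and between 2.92 and 3.29 with PR-957. Its log2 difference was -0.22. CEBPE over CEBPA rose 3.02-fold, from between 0.00633 and 0.0103 to between 0.0176 and 0.0314. For these 4 ratios the groups did not overlap, and each gave an exact permutation p of 0.0286, the smallest that 70 assignments allow, or 0.0357 after adjustment over the 5 ratios. Any ratio whose groups do not overlap gives this p, and for 42.5% of single genes the groups did not overlap. Since CEBPA did not differ detectably, its ratios largely restate the changes of CEBPB, SPI1 and CEBPE and are no further evidence. GFI1 over IRF8 was between 0.672 and 0.698 with DMSO and was 0.522, 0.484, 0.651 and 0.703 with PR-957, with overlapping groups (exact permutation p = 0.143, adjusted 0.143).

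For each factor, the genes with the most similar pattern were those with the smallest root mean square difference of centred log2 CPM over the 8 libraries, among 9238 candidates. For CEBPG these were EPRS1, a tRNA synthetase, at 0.03, then POLR1E and CAMKK2 at 0.03. Another tRNA synthetase, SARS1 (0.30), was among the closest for CEBPB, with the kinase FYN (0.26) and the adaptor PAG1 (0.30 on the log2 scale). CEBPB had less close neighbours than any other member. CEBPE was closest to COL4A2 (0.14), GOLM1 (0.15) and RNASE3, a granule protein of eosinophils (0.16). The nearest gene was RIOK2 for CEBPA, SLC35G1 for CEBPD, RAD51AP1 for SPI1, PRPS2 for GFI1, NELFCD for IRF8 and DEGS1 for KLF4, with differences from 0.01 to 0.08.

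Genes of granules, cytokine receptors and monocytes, some of which C/EBP and PU.1 proteins are known to regulate, were followed as lists. The lists were drawn by kind of gene, and regulation of their genes by these factors was not tested. Of 9 genes listed for primary granules 8 were tested, of which 6 were higher and 0 lower, with a median log2 fold change of 1.33. Of all genes, 23.1% were called higher and 23.5% lower. The list holds RNASE2 (log2 fold change 1.12) and RNASE3, granule proteins of eosinophils, and leaves out BPI, which fell and is given below. PRTN3, also among the higher, had 6 to 30 counts per library. When at least 1 CPM was required in at least 4 libraries, 5 of the list were higher. LYZ, which encodes lysozyme, rose by 2.42 on the log2 scale (edgeR adjusted p = 7.92e-10) and RNASE3 by 1.63, from 9.65 ± 1.11 to 30.0 ± 5.11 CPM (edgeR adjusted p = 7.71e-09). MPO, the myeloperoxidase that is a known C/EBP target, rose from 175 ± 16.2 to 506 ± 34.9 CPM, while ELANE, the neutrophil elastase, had 4.59 ± 0.288 and 5.16 ± 1.01 CPM and did not pass. Of 10 genes listed for secondary and tertiary granules, several of which CEBPE controls in mature neutrophils, 3 passed the filter. CHI3L1 rose from 64.0 ± 7.87 to 141 ± 17.0 CPM (log2 fold change 1.14). BPI, which stands in this list although its protein is stored in primary granules, fell from 13.1 ± 0.924 to 9.14 ± 1.57 CPM (-0.52). The other 7, LTF, LCN2, CAMP, MMP8, CRISP3, OLFM4 and PGLYRP1, had at most 5 counts in any library.

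Myeloid receptors and monocyte genes gave mixed counts, to be read against the 23.1% of all genes called higher and 23.5% called lower. Of 6 receptors tested 3 were higher and 0 lower (median log2 fold change 0.29), among them IL6R, the interleukin receptor subunit (0.34, edgeR adjusted p = 4.10e-05), and CSF2RB, the shared beta chain (0.33, edgeR adjusted p = 0.0242). The number was 5 without DMSO replicate 4, and CSF2RB lost its call when DMSO replicate 2 or 3 or a PR-957 library numbered 3 or 4 was left out (0.24 to 0.32 on the log2 scale). Of 16 monocyte and macrophage genes tested 5 were higher, 1 lower and 10 not called (median 0.31). MNDA, a nuclear antigen of myeloid cells, rose by 2.06 and CD36, a scavenger receptor, by 1.68, whereas CTSS, a lysosomal protease, fell by 0.22 on the log2 scale. CD14 had at most 12 counts in any library. The number higher was 11 when DMSO replicate 4 was left out and 3 when DMSO replicate 1, 2 or 3 or PR-957 replicate 4 was, whereas MNDA and CD36 kept their call with each of the 8 libraries left out.

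Other regulators moved in both directions, in small lists for which the same shares of all genes, 23.1% higher and 23.5% lower, are the background. A further list joined genes whose proteins bind or degrade C/EBP proteins with the ID genes, whose proteins inhibit helix-loop-helix factors. Of its 6 genes tested 3 were higher and 2 lower (median 0.19). TRIB2, a pseudokinase that directs CEBPA protein to degradation, rose by 1.36 (edgeR adjusted p = 0.00286, 26 to 186 counts per library). The others that rose were ID1 (1.95, edgeR adjusted p = 4.35e-07) and ID2 (0.21). The ubiquitin ligases COP1 (-0.20) and FBXW7 (-0.23) fell slightly, and with library totals alone neither passed the threshold (-0.12 and -0.15). Relatives of the members in the ETS, GFI, IRF and KLF families had 0 higher and 2 lower of 5 tested (median -0.49), namely KLF2 (-0.57) and KLF3 (-0.56), which went opposite to KLF4. Of 12 other myeloid transcription factors tested, 2 were higher and 5 lower (median -0.14). NFE2, a bZIP factor of erythroid and megakaryocytic cells that myeloid cells also express, rose by 0.86, and VDR, the vitamin D receptor of monocytes, by 0.38, while RUNX1 fell by 0.23 and LMO2 by 0.33 on the log2 scale. The immediate early factor EGR2, named after its values were seen, was also among the lower, with 11 to 119 counts in DMSO libraries and 0 to 3 in PR-957 libraries. Factors of other blood lineages gave 2 higher and 2 lower of 6 tested (median -0.01), with FLI1, another ETS factor, lower (-0.32). The remaining 3 of these calls, the increases of EBF1 and KLF1 and the decrease of BCL11B, were named after their values were seen and rest on at most 35 counts per library.

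**Figure D4:**
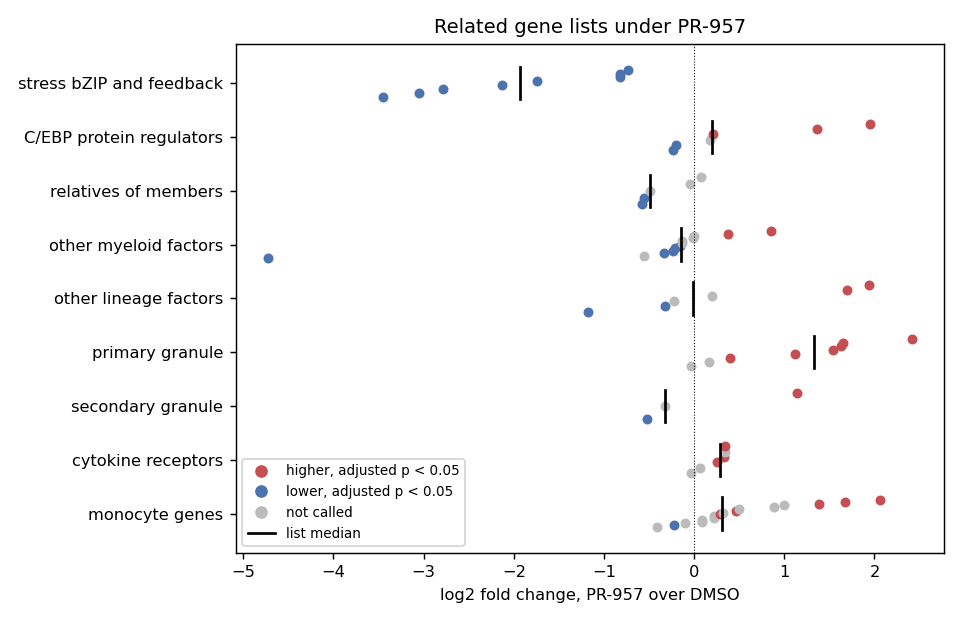
Each point is 1 tested gene of a list, placed by its log2 fold change of PR-957 over DMSO and coloured red where higher, blue where lower and grey where not called at an adjusted p of 0.05. Vertical black lines are list medians, from -1.94 for the stress-linked bZIP factors and feedback genes to 1.33 for the primary granule genes.

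The cells carried most markers of myeloid blasts, several of which were lower with PR-957. Of 8 blast markers 7 were tested and 4 fell, namely PTPRC, FLT3, HOXA9 and MEIS1, where 23.5% of all genes were called lower. The other tested markers, CD33, KIT and ANPEP, were not called, and the mean of ANPEP was higher with PR-957. The summed level of the list went from between 656 and 735 CPM with DMSO to between 424 and 457 CPM with PR-957. Most of this sum and of its drop came from FLT3 (340 ± 7.24 to 173 ± 19.7 CPM) and PTPRC (207 ± 23.1 to 131 ± 9.81 CPM). PTPRC is expressed by leukocytes in general, so the sum does not describe each marker. CD33 had 37.5 ± 2.25 and 38.6 ± 2.24 CPM, KIT only 3 to 23 counts per library, and CD34 at most 3. Of the erythroid markers, EPOR had 17.4 ± 2.45 CPM with DMSO and 38.1 ± 17.0 CPM with PR-957, and its highest libraries were PR-957 replicates 3 and 4, while HBB, HBA1 and ALAS2 had at most 3 counts in any library. Markers of cells outside the blood, between 43.8 and 64.9 CPM with DMSO and between 83.2 and 86.6 CPM with PR-957, were carried by PECAM1, an adhesion molecule that myeloid cells also express. Megakaryocyte markers summed to at most 2.97 CPM with PF4 and PPBP at 0, T cell markers to at most 0.524 CPM with CD3E, CD3G and TRAT1 at 0, and B cell markers to between 14.1 and 20.7 CPM, mostly PAX5, with MS4A1 at 1 count or none. The part of these levels in the changes of the 9 factors was not tested.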

How the data were processed

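RNA-sequencing was analysed in 8 libraries of polyadenylated RNA from MOLM-13 cells, 4 per treatment, grouped and numbered by the sample titles. According to the sources used here, the authors trimmed reads with Trimmomatic 0.39, aligned them to hg38 with STAR 2.7.10a and counted fragments on the reverse strand against NCBI RefSeq models with featureCounts 2.0.1. The deposited values were raw counts per gene. The counting command named 16 alignments, of which 8 had columns, and 6 rows without values were left out. The authors' own DESeq2 comparison was not used. No library resembled a duplicate (lowest chi-square per gene 3.18, for DMSO replicates 1 and 3).

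The groups were compared two-sided with edgeR 4.0.16 (quasi-likelihood test, robust estimation; R 4.3.3), TMM scaling, filterByExpr (13179 genes kept) and no covariate. Adjustment was by Benjamini-Hochberg across the 13179 genes. The fit had been tested on simulated counts. CPM values are TMM-scaled and given as mean ± SD. TPM used the exon length of the count table. Count ratios had 0.5 added to each count and were tested two-sided by exact permutation over all 70 assignments. In the promoter windows motifs were searched on both strands. Of the members, CEBPA, CEBPB, CEBPE, CEBPG, GFI1, IRF8 and KLF4 had windows in the RefSeq table used.

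The 9 members, the 9 gene lists, the 6 marker lists and the split of replicates 1 and 2 from 3 and 4 were chosen with earlier results of these data known. Named were all members, their 3 nearest genes (average log2 CPM of at least 3) and, per list, up to 2 increases and 2 decreases past the threshold (average log2 CPM of at least 1). Other genes were named after their values were seen. The values of 1 listed marker are not reported here. Alternatives were DESeq2 1.42.0, limma-voom (limma 3.58.1), RLE, upper quartile or no further scaling, other filters, the replicate number as a block, the replicate sets as a term or alone, each library left out, a fold threshold, another pseudocount and another length scaling.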

Additional observations from a re-analysis of the deposited data

Results flagged for a closer look

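CEBPG had 227 CPM in DMSO replicate 4, below the 244 to 248 CPM of the other 3 controls. Its gap to the nearest library was 0.835 of the range of the group, where the critical value for 4 samples is 0.829. This was 1 of 28 groups examined, and chance sets apart about 1 in 20. With each library left out in turn, this one included, the log2 fold change of CEBPG was between -0.75 and -0.70.

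The effect of PR-957 on CEBPB differed between replicates 3 and 4 and replicates 1 and 2 by 1.20 on the log2 scale (edgeR adjusted p = 4.96e-05). Since this split was tested after the counts of CEBPB had shown it, the p restates that observation and is no independent evidence. The treated libraries of replicates 1 and 2 were the lower and their controls the higher, so both groups contributed. The other 4 genes that passed this term were RFLNB (2.65), TXNDC5 (4.35), C4orf48 (1.12) and CITED4 (0.84 on the log2 scale).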

How the results depend on the processing

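Over 19 other fits, CEBPB (log2 fold change -2.17 to -0.98), CEBPE (1.42 to 1.74), CEBPG (-0.75 to -0.64) and SPI1 (0.17 to 0.28) kept their direction and call in each, and IRF8 (0.16 to 0.33) and KLF4 (0.31 to 0.44) in 18. The exception was the fit of replicates 3 and 4 only, in which 2 members were called higher in place of 4. The 3 members that were not called turned sign. CEBPD ran from -0.24 in replicates 1 and 2 only, where it was called lower (edgeR adjusted p = 0.0494) and so made 3 members lower, to 0.22 in replicates 3 and 4 only. With library totals alone CEBPA was at 0.056 and CEBPD at 0.055, with limma-voom CEBPD was at 0.015, in replicates 3 and 4 only CEBPA was at 0.002, and in replicates 1 and 2 only GFI1 was at -0.11. With each library left out in turn CEBPA ranged from -0.052 to 0.002, CEBPD from -0.159 to 0.067 and GFI1 from -0.049 to 0.078. The cause was not tested. Library totals alone gave 4066 genes higher and 2353 lower, against 3045 and 3098 with TMM scaling.

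Same-numbered samples deviated together only weakly (correlations of 0.151, 0.213, 0.098 and 0.198), so the numbers were not taken to pair them. However, every DMSO library and 3 of the 4 PR-957 libraries correlated best with their own number. Correlations between the treatments were positive within replicates 1 and 2 and within replicates 3 and 4, and negative across these sets. The main fit had no term for this structure. With the replicate number as a block, 6913 genes were called in place of 6143, CEBPB had an edgeR adjusted p of 0.0314 and no member's call changed. In the lists, 7 monocyte genes were then higher in place of 5, and 7 other myeloid factors, 3 relatives and 3 factors of other lineages were lower in place of 5, 2 and 2. The 5 ratios kept their direction throughout, although with 1 library left out or with pairs the exact tests cannot go below 0.0571 and 0.125. Counts of 60 to 95 for CEBPE and under 100 for several list genes limit the precision of those values.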
